A study of Mus musculus with 12 samples.

Results

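Transcripts for the subunits of oxidative phosphorylation were measured by bulk RNA sequencing in the arcuate nucleus of female mice. The members were chosen by symbol. They were the Ndufa, Ndufb, Ndufc, Ndufs and Ndufv genes, Sdha to Sdhd, Cyc1, the Uqcr genes, the Cox4 to Cox8 genes, the Atp5 genes and the protein genes of the mitochondrial genome. The rule found 96 of the 16640 genes in the table, 83 encoded in the nucleus and 13 in the mitochondrial genome. All 96 passed the filter on low values, a signal of at least 1 in at least 2 libraries. Of these, 43 belonged to complex I (36 nuclear), 4 to complex II (4 nuclear), 10 to complex III (9 nuclear), 20 to complex IV (17 nuclear) and 19 to complex V (17 nuclear). Ndufa4 and Ndufa4l2 were placed in complex IV, where the NDUFA4 protein resides in spite of its name. A further 15 annotated entries whose symbols match the rule, among them Cox8b, Cox8c and Cox7b2, were not analysed here.

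The control mice carried loxP-flanked Esr1, the gene for oestrogen receptor alpha, and are labelled Ctrl. The mutants, labelled NkxCre, carried the same floxed Esr1 with a Cre recombinase under Nkx2-1, so that recombination is expected in every cell that has expressed that factor and not in the arcuate nucleus alone. Mice of both genotypes were 27 weeks old on a mixed CD-1;129P2 background and ate either standard chow or, for 17 weeks, a high-fat diet (HFD). There were 3 control chow, 4 mutant chow, 2 control HFD and 3 mutant HFD libraries. Nothing in the labels states that each library came from a separate animal, so the p-values measure the spread between these libraries, which may in part be technical.

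Oxidative phosphorylation takes place in the inner mitochondrial membrane. Complex I (NADH dehydrogenase) and complex II (succinate dehydrogenase, also an enzyme of the citric acid cycle) pass electrons to ubiquinone, complex III (the cytochrome bc1 complex) passes them to cytochrome c, and complex IV (cytochrome c oxidase) reduces oxygen. Proton pumping by complexes I, III and IV drives complex V, the ATP synthase. All of these complexes except complex II are mosaics of subunits made from nuclear and mitochondrial genes, and neurons depend heavily on this pathway for ATP.

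The unit throughout is the signal deposited by the authors, an abundance normalised for transcript length and for depth, so levels can be set side by side between genes. Column totals ran from 922172 in control chow replicate 1 to 1254999 in control chow replicate 2, and genes listed at 0 numbered from 201 in mutant HFD replicate 1 to 1768 in mutant chow replicate 3. The sequencing depth behind each value is unknown. All 9 arcuate neuron markers were present, with a summed signal from 2179 to 8313 per library, and 7 of 8 pituitary markers were in the table, with a summed signal of 6052 in control chow replicate 2 against 125 to 2108 in the others. Esr1 itself had signals of 17.8, 7.29 and 19.8 in control chow, 6.05, 3.15, 1.93 and 1.65 in mutant chow, 15.3 and 22.4 in control HFD, and 10.7, 16.6 and 11.9 in the libraries labelled mutant HFD. The chow groups did not overlap, but the libraries labelled mutant HFD lay above control chow replicate 2, so every direction drawn from them below rests on the label and not on the Esr1 level. In bulk tissue, fewer cells of a type and less RNA per cell cannot be told apart.

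The mitochondrial members were far more abundant than the nuclear ones. The median of the mean signal over 12 libraries was 6622 for the 13 mitochondrial genes and 261 for the 83 nuclear genes. All 13 mitochondrial genes had a mean of at least 1000, from 1731 for mt-Atp8, a small subunit of the ATP synthase stator, to 14002 for mt-Co1, the catalytic subunit of cytochrome c oxidase. In the nucleus 4 genes reached 1000. These were Atp5b (1860), the catalytic beta subunit of ATP synthase, and the complex IV genes Cox8a (1402), Cox4i1 (1262) and Cox6a1 (1146). At the other end 13 nuclear genes had a mean under 100, and the lowest was Ndufa4l2 at 4.81. The median level of nuclear members was 185 for complex II, 219 for complex I, 309 for complex IV, 333 for complex III and 371 for complex V.

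Summed over the 83 nuclear genes, the signal was 25611, 45632 and 24031 in control chow, 29581, 28378, 20228 and 26914 in mutant chow, 23599 and 27252 in control HFD, and 34265, 25712 and 27581 in mutant HFD. Control chow replicate 2 stood above all other libraries and mutant chow replicate 3 below them. The summed signal of the 13 mitochondrial genes was 84852, 122496 and 99434 in control chow, 90160, 88799, 77212 and 91072 in mutant chow, 102454 and 67060 in control HFD, and 89641, 91370 and 113949 in mutant HFD. Control chow replicate 2 was again the highest, but the lowest was now control HFD replicate 2, and the 2 control HFD libraries lay on opposite sides of most others. Their marker sums differed too, in the order of replicates 1 and 2. They were 2179 and 6529 for arcuate neurons, 125 and 1483 for pituitary, and 3708 and 1842 for oligodendrocytes. The part of tissue content in these differences was not tested.

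The ratio of mitochondrial to nuclear signal is taken within a library and so does not depend on how libraries were scaled. On chow it averaged 3.38 ± 0.729 (SD, n = 3) for controls and 3.34 ± 0.346 (SD, n = 4) for mutants. On HFD it averaged 3.40 ± 1.33 (SD, n = 2) for controls and 3.43 ± 0.765 (SD, n = 3) for mutants. The 4 group means differed by far less than the spread between replicates of any group. Single libraries ran from 2.46 in control HFD replicate 2 to 4.34 in control HFD replicate 1, so the whole range was found within 1 group. The mitochondrial genes made up between 7.01% and 11.5% of all signal in a library, and the nuclear members between 2.17% and 3.64%.

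**Figure D1:**
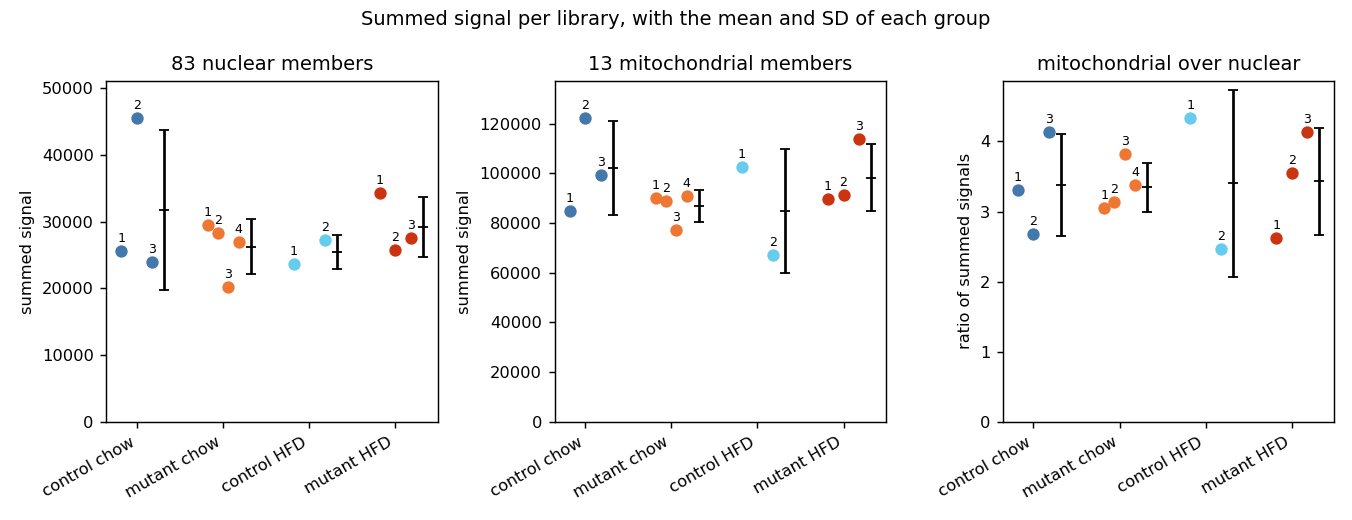
Summed signal of the 83 nuclear members (left), of the 13 mitochondrial members (middle) and their ratio (right), on linear axes that start at 0. Each numbered point is the replicate of that number, and the bar beside each group is its mean ± SD; control chow replicate 2 has the highest sums, 45632 and 122496, and the group means of the ratio lie between 3.34 and 3.43.

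Nuclear members of different complexes varied together from library to library. Each gene's log2(signal + 1) was set against its own mean over the 12 libraries. The median of this deviation over the 83 nuclear genes was -0.10, 0.72 and -0.17 in control chow, 0.08, 0.03, -0.41 and -0.05 in mutant chow, -0.24 and 0.02 in control HFD, and 0.32, -0.11 and 0.00 in mutant HFD. In control chow replicate 2, 80 of 83 nuclear genes were above their mean, and in mutant chow replicate 3, 9 of 83 were. Control chow replicate 2 held the highest value for 69 of the 83 genes, and mutant chow replicate 3 the lowest for 45. Both libraries belong to the chow groups, so the medians over members, and over the lists of other genes, in comparisons that use those groups are given below with and without them.

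Against the median of the other 11 libraries, control chow replicate 2 had a median ratio of 1.69 over the nuclear members. The ratio was below 1 for 3 genes, Sdha (0.753), Atp5a1 (0.882) and Sdhc (0.940), and was highest for Cox7a1 (6.05), a muscle-type subunit of cytochrome c oxidase. For mutant chow replicate 3 the median ratio was 0.744, with 72 of 83 genes below 1. These extremes were shared by complexes I, III, IV and V, whose nuclear medians in control chow replicate 2 deviated by 0.74, 0.76, 0.72 and 0.70. The nuclear genes of complex II deviated by 0.03 there.

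**Figure D2:**
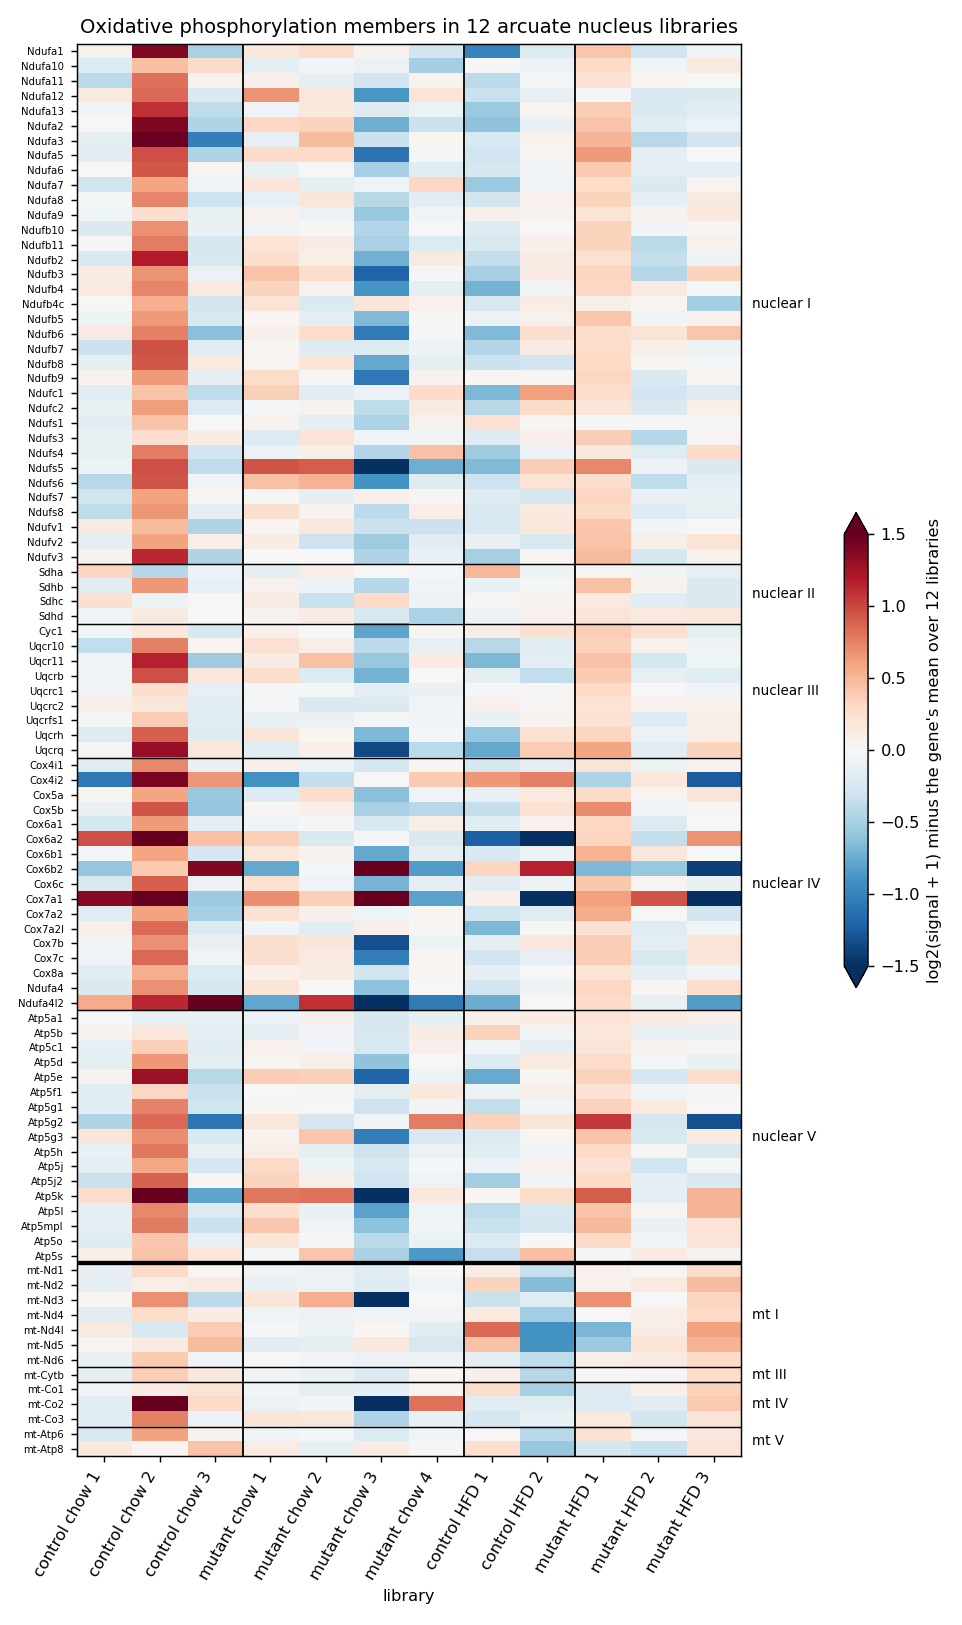
Each row is a member, with 1 nuclear member not drawn, and each column is a library; colour is log2(signal + 1) minus the gene's mean over 12 libraries, cut at -1.5 and 1.5. Thin lines separate complexes and groups, and the thick line separates nuclear from mitochondrial genes; the column of control chow replicate 2 is above the mean for all but 3 nuclear members, and that of control HFD replicate 2 is below the mean for all 13 mitochondrial members.

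The nuclear members have short transcripts, with a median length of 680 bases against 2136 over the genes tested. In control chow replicate 2 the deviation of genes that are not members also moved with length, with medians of 0.19 under 800 bases, 0.16 from 800 to 2000 bases and -0.16 above that. The nuclear members deviated more than these at each length, by 0.78 (53 genes), 0.60 (27 genes) and 0.75 (3 genes). The pituitary marker signal was highest in the same library, where most of it came from Cga (4802). The next highest sum, 2108, was in mutant chow replicate 3, where the summed nuclear members were lowest. The part of transcript length and of pituitary tissue in the pattern was not tested, but medians with the length trend removed are given below.

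How tightly a member was held across libraries differed between subunits. Taking the highest over the lowest library, the median ratio was 2.47 for the 81 nuclear members above 0 in every library and 1.67 without the 2 extreme libraries. The narrowest ranges belonged to Uqcrc2 (1.34) and Uqcrc1 (1.36), the core proteins of complex III, and Atp5a1 (1.37), the alpha subunit of ATP synthase. Within complex I the 7 core subunits inherited from the bacterial enzyme deviated by 0.60 in control chow replicate 2, and the other 29, the supernumerary subunits and Ndufb4c, by 0.77. The core transcripts are also longer, with a median of 977 against 625 bases.

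Promoter sequences of nuclear members are shown as a description, and their part in the variation between libraries was not tested. For each complex, the nuclear member with the highest mean signal was taken among those with a window in the RefSeq promoter table. The stretch is the 120 bases before the start site, 5′ to 3′ on the gene's strand, on GRCm38.p6, and capitals mark a match to the NRF1 letters GCGCANGC or the GABPA letters CCGGAAGT on either strand. The regions are chr15:82354292-82354411 (minus strand) for Ndufa6, an accessory subunit of complex I, chr13:74350241-74350360 (minus) for Sdha, the flavoprotein of complex II, chr4:116075071-116075190 (minus) for Uqcrh, the hinge protein of complex III, chr19:7217617-7217736 (minus) for Cox8a, a small subunit of complex IV, and chr10:128083187-128083306 (plus) for Atp5b.
Ndufa6: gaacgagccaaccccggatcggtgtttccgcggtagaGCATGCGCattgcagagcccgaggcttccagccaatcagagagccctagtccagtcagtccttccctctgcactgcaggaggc
Sdha: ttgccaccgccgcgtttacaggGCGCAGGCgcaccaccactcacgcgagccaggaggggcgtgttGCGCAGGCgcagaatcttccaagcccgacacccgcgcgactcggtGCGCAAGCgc
Uqcrh: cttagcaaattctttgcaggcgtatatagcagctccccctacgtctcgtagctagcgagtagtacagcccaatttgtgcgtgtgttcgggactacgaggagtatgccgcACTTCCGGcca
Cox8a: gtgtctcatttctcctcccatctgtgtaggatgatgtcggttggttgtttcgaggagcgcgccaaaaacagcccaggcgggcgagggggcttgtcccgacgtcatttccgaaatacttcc
Atp5b: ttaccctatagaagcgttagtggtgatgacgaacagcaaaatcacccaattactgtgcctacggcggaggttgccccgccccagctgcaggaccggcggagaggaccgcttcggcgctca

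The Sdha stretch held 3 NRF1 matches, the Ndufa6 stretch 1, on the minus strand, and the Uqcrh stretch 1 GABPA match, on the minus strand. No such match lay wholly inside the stretches of Cox8a and Atp5b. Ndufa6 held further NRF1 matches past the printed stretch, at 26 to 33 and 30 to 37 after the start site. The level in control chow replicate 2 against the median of the other libraries was 0.753 for Sdha and 2.06 for Ndufa6. These are single genes, and a relation between matches and level was not tested. Over the 66 of 83 nuclear members with a window of 300 bases (250 before the start and 50 after), 34.8% held the NRF1 letters, against 18.7% of the 11922 tested genes with a window. The YY1 letters AAGATGGC were in 13.6% against 4.18%, the GABPA letters in 7.58% against 7.32%, the SP1 box GGGCGG in 40.9% against 62.2%, CCAAT in 43.9% against 38.2% and TATAAA in 7.58% against 7.67%. Both strands were searched, overlaps between motifs were allowed, and a match of letters is a description and not a binding site.

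Among the core subunits of complex I, Ndufv2, an iron-sulphur protein of the NADH-oxidising arm, had signals of 197, 330 and 234 in control chow, 235, 175, 150 and 193 in mutant chow, 201 and 184 in control HFD, and 292, 231 and 251 in mutant HFD. The mutant HFD libraries lay above both control HFD libraries, and overlapped both chow groups. The core subunits Ndufs1, Ndufs3, Ndufs7, Ndufs8 and Ndufv1 ranged from 51.4 for Ndufs3 in mutant HFD replicate 2 to 429 for Ndufs7 in control chow replicate 2.

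Ndufa6 had signals of 416, 802 and 431 in control chow, 390, 419, 296 and 368 in mutant chow, 349 and 409 in control HFD, and 551, 382 and 380 in mutant HFD. Leaving aside control chow replicate 2 and mutant chow replicate 3, its libraries lay within 349 to 551. Ndufb4, an accessory subunit of the membrane arm, had a mean of 56, against 548 for Ndufb4c, an annotated pseudogene on chromosome 15 at 73809507 to 73809896 (GRCm38). Their aligned sequences were identical over 390 of 390 bases, so how reads were shared between them cannot be told from these values, and each is reported as uncertain.

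Complex II, the complex with no mitochondrial gene, had the narrowest median range of the 5 sets of nuclear genes, 1.75-fold. Its transcripts, from 815 bases for Sdhc to 1811 for Sdha, are longer than the nuclear median of 680. The part of length in this range was not tested. Sdha had signals of 306, 181 and 228 in control chow, 221, 261, 246 and 240 in mutant chow, 344 and 231 in control HFD, and 248, 234 and 223 in mutant HFD. It was lowest in control chow replicate 2, where most other nuclear members were highest. Sdhc, a membrane anchor, ranged from 142 to 220 and Sdhd, the other anchor, from 68.9 to 110. Sdhb, the iron-sulphur subunit, followed the pattern of the other complexes, with 289 in control chow replicate 2 and 137 in mutant chow replicate 3.

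In complex III the range was narrower for Uqcrfs1, the Rieske iron-sulphur protein (138 to 207), than for the small subunit Uqcrq. Cyc1, cytochrome c1, had signals of 164, 189 and 143 in control chow, 179, 170, 97.7 and 173 in mutant chow, 182 and 199 in control HFD, and 219, 199 and 154 in mutant HFD. Mutant chow replicate 3 alone lay outside 143 to 219. Uqcrq had signals of 327, 821 and 374 in control chow, 299, 356, 129 and 251 in mutant chow, 194 and 433 in control HFD, and 499, 295 and 418 in mutant HFD, with control chow replicate 2 and mutant chow replicate 3 at the ends of its range.

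In complex IV the ubiquitous subunits Cox4i1, Cox5a and Cox5b ranged from 1031 to 2050, from 203 to 475 and from 196 to 566. Control chow replicate 2 was highest for each of them. In complex V, Atp5a1 ranged from 425 to 585 and Atp5b from 1565 to 2352, with control chow replicate 2 inside both ranges. Atp5k, subunit e of the membrane part, had signals of 238, 577 and 114 in control chow, 342, 347, 8.71 and 221 in mutant chow, 201 and 239 in control HFD, and 371, 179 and 282 in mutant HFD. The single value of 8.71 in mutant chow replicate 3 gave Atp5k a 66.2-fold range, the widest of the nuclear members above 0 in every library.

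The mitochondrial genes lie on chromosome M of GRCm38, and 12 of them are on the heavy-strand transcript. Several are copied almost base for base in a nuclear block on chromosome 1, and 5 of the 13 had such a copy in the table. The ends of mt-Nd3, a small membrane subunit of complex I, and mt-Co2, the subunit of complex IV that receives electrons from cytochrome c, are shown with their copies because reads from these stretches could be counted to either gene. The first 61 bases of mt-Nd3 (chrM:9459-9519, plus strand) differ from Gm28438 (chr1:24613059-24613119, minus strand) by T3C, with positions counted from the first base, and this base is in capitals. The last 63 bases of mt-Co2 (chrM:7634-7696, plus strand) match the 60 bases at the end of Gm28661 (chr1:24614885-24614944, minus strand) and end in 3 further bases, in capitals.
mt-Nd3: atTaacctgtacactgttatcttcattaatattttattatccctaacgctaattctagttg
Gm28438: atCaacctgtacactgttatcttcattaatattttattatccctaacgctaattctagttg
mt-Co2: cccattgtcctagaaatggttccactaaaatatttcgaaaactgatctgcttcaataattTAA
Gm28661: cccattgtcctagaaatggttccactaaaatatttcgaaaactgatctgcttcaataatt

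mt-Co2 had signals of 3754, 12788 and 5140 in control chow, 3980, 4104, 1011 and 7398 in mutant chow, 3748 and 3715 in control HFD, and 3672, 3755 and 5542 in mutant HFD, a 12.6-fold range. Its copy Gm28661, identical over 681 of 681 aligned bases, had a mean of 13066 against 4884 for mt-Co2. Added together, the pair gave 15723, 23642 and 18826 in control chow, 16900, 17636, 15765 and 18415 in mutant chow, 17682 and 13960 in control HFD, and 19273, 17605 and 19971 in mutant HFD. The range of the sum was 1.69-fold, but adding a larger value narrows a fold range by itself. Since reads from the shared bases could be counted to either gene, differences in mt-Co2 alone are reported as uncertain.

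mt-Nd3 had signals of 2835, 4520 and 2125 in control chow, 3167, 4087, 976 and 2791 in mutant chow, 2218 and 2473 in control HFD, and 4497, 2792 and 3508 in mutant HFD. Its range was 4.63-fold, and that of its sum with Gm28438 was 2.36-fold. Over the 12 libraries the Spearman correlation of mt-Nd3 with Gm28438 was 0.825, so the 2 mostly moved together, while that of mt-Co2 with Gm28661 was -0.43. It was -0.42 for mt-Co3, the third core subunit of complex IV, with Gm28437, and -0.23 for mt-Atp6, subunit a of ATP synthase, with Gm10925. Each pair shares its libraries and nearly all of its bases, so these values are a description. Mutant chow replicate 3 gave the lowest value for mt-Co2, mt-Nd3 and mt-Co3.

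**Figure D3:**
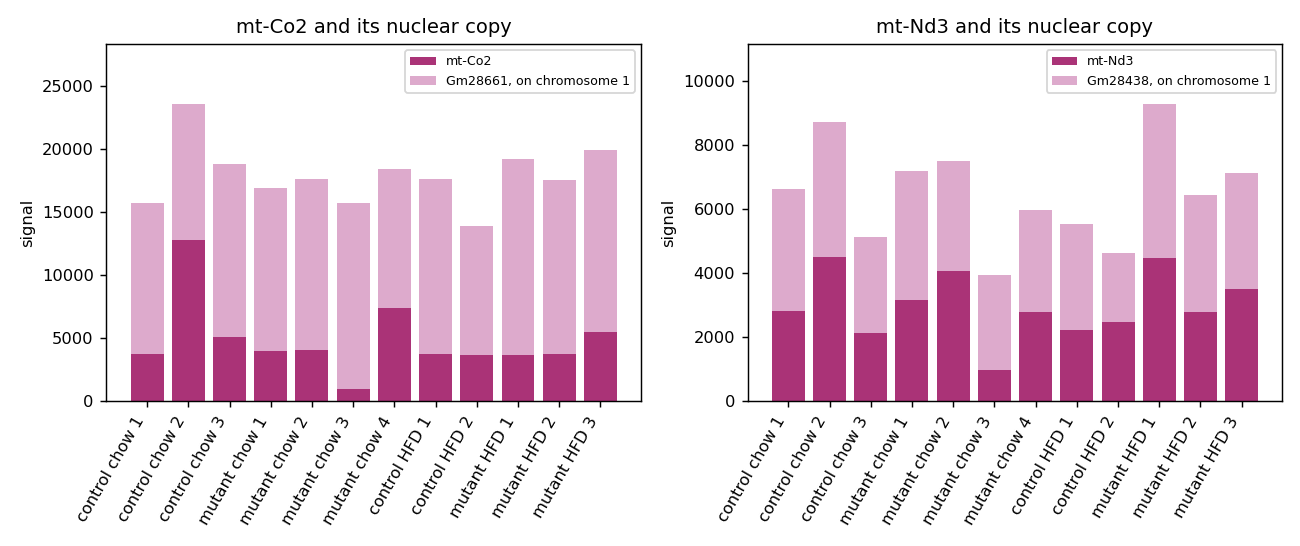
Stacked bars from 0 give the signal per library of mt-Co2 and Gm28661 (left) and of mt-Nd3 and Gm28438 (right). The dark part, mt-Co2, runs from 1011 to 12788, while the height of the whole bar runs from 13960 to 23642.

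mt-Nd6 and mt-Nd1, which have no such copy in the table, varied less than mt-Co2 or mt-Nd3, with ranges of 1.72-fold and 1.55-fold. They were the narrowest of the 13 mitochondrial genes. mt-Nd2, mt-Nd5 and mt-Nd4l, most of which have no such copy either, ranged 2.15-fold, 2.67-fold and 3.39-fold. The copied genes mt-Co3 and mt-Atp6 ranged 2.33-fold and 2.02-fold. Without the 2 extreme libraries the ranges were 1.39-fold for mt-Co3, 1.55-fold for mt-Atp6, 1.59-fold for mt-Nd6 and 1.54-fold for mt-Nd1. A copy thus did not always go with a wider range. mt-Nd6, the complex I subunit encoded on the light strand, had signals of 5057, 7187 and 5268 in control chow, 5447, 5322, 5122 and 5158 in mutant chow, 4921 and 4174 in control HFD, and 5862, 5919 and 6641 in mutant HFD. All 3 mutant HFD libraries exceeded all mutant chow libraries and both control HFD libraries. mt-Nd1, the subunit that holds the entrance of the ubiquinone channel, had signals of 7019, 9339 and 7854 in control chow, 7378, 7203, 6753 and 7652 in mutant chow, 8279 and 6019 in control HFD, and 8111, 7780 and 9280 in mutant HFD. mt-Nd1 in mutant HFD was also above mutant chow without overlap, but the 2 control HFD libraries spanned the mutant HFD minimum. mt-Cytb, the haem-bearing subunit of complex III, ranged from 6485 to 11300 and mt-Co1 from 9837 to 17595.

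Neighbouring genes of the mitochondrial genome did not keep a fixed ratio. mt-Nd4l and mt-Nd4 are read from a shared messenger, and their ratio ran from 0.966 in mutant HFD replicate 1 to 2.52 in control HFD replicate 1. mt-Atp8 and mt-Atp6 share a messenger too, and their ratio ran from 0.0877 in control chow replicate 2 to 0.172 in control chow replicate 1. The transcripts of mt-Nd4l and mt-Atp8 have 297 and 204 bases, the shortest of the 13. mt-Nd2, mt-Nd4 and mt-Nd5, membrane subunits of the proton-pumping arm, ranged from 2463 to 5305, from 4554 to 8078 and from 1254 to 3351, each lowest in control HFD replicate 2.

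Nuclear and mitochondrial members followed each other less than genes of the same genome did. Over the 12 libraries, the median Spearman correlation was 0.55 for the 3403 nuclear pairs, 0.51 for the 78 mitochondrial pairs and 0.15 for the 1079 mixed pairs, and 90.4%, 89.7% and 61.4% of these pairs were above 0. Without control chow replicate 2 and mutant chow replicate 3 the medians were 0.38, 0.48 and -0.14. All pairs share the same libraries and their scaling, so these values are a description. The genes most like the summed mitochondrial signal were mt-Cytb (0.979), mt-Nd4 (0.951), mt-Nd1 (0.930), mt-Co1 (0.895) and mt-Nd2 (0.888), which are parts of that sum. The nuclear member closest to it reached 0.699.

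The first comparison asked how loss of oestrogen receptor alpha in the mutants relates to these genes on chow. No member passed an adjusted p of 0.05, and the lowest was 0.982, where 3 of the 15801 genes tested (0.019%) passed. Nuclear members were on balance lower in mutant than in control chow, with a median log2 fold change of -0.23 against 0.01 over all genes and 5 of 83 above 0. The medians were -0.26 for complex I, -0.11 for complex II, -0.17 for complex III, -0.28 for complex IV and -0.18 for complex V. At an unadjusted p under 0.05, 0 nuclear members were higher and 4 lower (Cox6a2, Ndufa4l2, Ndufa6 and Uqcrq), where 2.59% of all genes were higher and 1.75% lower. Ranges without overlap were seen for 1 nuclear member, Cox6a2, which was lower, where 2.54% of all genes were higher and 1.97% lower without overlap.

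This median moved with single libraries. The nuclear value was 0.04 without control chow replicate 2, -0.10 without mutant chow replicate 3, -0.37 without control chow replicate 1 and -0.42 without control chow replicate 3. Without both extreme libraries it was 0.18 with 64 of 83 members above 0. Those libraries were picked by the levels of the members themselves, so leaving out a high control and a low mutant raises this difference by construction. In that fit 0 members passed the adjusted threshold by limma, with 1 higher and 1 lower at an unadjusted p under 0.05. The 13 mitochondrial members had a median of -0.17 with 0 of 13 above 0, which became 0.01 under quantile normalisation and -0.03 without both libraries. Quantile normalisation gives all libraries the same values rank by rank, so it largely removes any shift shared by genes as abundant as these. For Uqcrq the log2 fold change was -0.93 ± 0.40 (SE, adjusted p = 0.982), for Ndufa6 -0.52 ± 0.24 and for Atp5k -0.99 ± 1.02, and the value of Atp5k was 0.25 without mutant chow replicate 3. The highest were Atp5g2, 1 of the genes for the c subunit of ATP synthase, at 0.39 ± 0.52, Ndufc1 of complex I at 0.14 ± 0.29 and Cox7a2 of complex IV at 0.10 ± 0.25, and all 3 were below 0 without control chow replicate 3.

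The comparison of HFD with chow in mutants asked what the diet added to the mutant state. Again no member passed, with a lowest adjusted p of 0.910, where 3 genes in all (0.019%) did. The median log2 fold change was 0.20 for nuclear members (66 of 83 above 0), 0.19 for mitochondrial members (12 of 13) and -0.02 over all genes. Ndufv2, at 0.47 ± 0.20 (SE, adjusted p = 0.910), was the member with an unadjusted p under 0.05, and 1.44% of all genes were higher and 3.94% lower by that rule. Without overlap 3 nuclear members, Sdhd and Uqcrc2 among them, and 5 of 13 mitochondrial members, mt-Atp6, mt-Nd1, mt-Nd2, mt-Nd4 and mt-Nd6, were higher in mutant HFD, where 3.11% of all genes were higher and 4.88% lower without overlap.

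Leaving out mutant chow replicate 3 moved the nuclear median to 0.04, leaving out mutant HFD replicate 1 to 0.06, and leaving out mutant HFD replicate 2 to 0.25. The mitochondrial median was 0.14 without mutant chow replicate 3 and 0.25 without mutant HFD replicate 1. It was 0.09 under quantile normalisation. The largest positive values belonged to Atp5k (1.07 ± 1.02), Uqcrq (0.70 ± 0.40) and mt-Nd3 (0.54 ± 0.43), all of which had their lowest library in mutant chow replicate 3, and Atp5k was at -0.16 without it. The most negative were Cox7a1 (-1.26 ± 1.21), Cox6b2 (-0.87 ± 0.58) and Atp5g2 (-0.33 ± 0.52).

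On HFD, mutants were compared with 2 control libraries. No member passed, with a lowest adjusted p of 1, where 1 gene in all (0.00633%) did. Nuclear members had a median log2 fold change of 0.19 with 71 of 83 above 0, and mitochondrial members 0.28 with 13 of 13 above 0, against -0.01 over all genes. Without overlap 16 nuclear members were higher in the libraries labelled mutant HFD, among them Ndufv2, Ndufs7, Sdhd, Cox4i1, Cox6b1, Atp5c1 and Atp5l, and 3 were lower, Cox4i2, Cox6b2 and Ndufs1. Of the mitochondrial members mt-Nd3 and mt-Nd6 were higher. Over all genes 7.27% were higher and 8.46% lower without overlap. At an unadjusted p under 0.05, Cox6a2 was higher and Cox6b2 lower, where 1.09% of all genes were higher and 1.11% lower.

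The nuclear median was 0.05 without control HFD replicate 1, 0.07 without mutant HFD replicate 1, 0.31 without control HFD replicate 2 and 0.27 without mutant HFD replicate 2. The mitochondrial median was 0.54 without control HFD replicate 1, 0.02 without control HFD replicate 2 and 0.07 under quantile normalisation. Without mutant HFD replicate 3 it was 0.17. Atp5l, subunit g of ATP synthase, was at 0.63 ± 0.33 and mt-Nd6 at 0.44 ± 0.25.

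In controls, HFD was set against chow to ask what the diet did without the deletion. No gene of the 15801 (0%) passed by limma, where 228 genes (1.44%) were higher and 332 (2.1%) lower at an unadjusted p under 0.05. The median log2 fold change was -0.25 for nuclear members with 12 of 83 above 0, and -0.34 for mitochondrial members with 0 of 13 above 0, against -0.01 over all genes. With an unadjusted p under 0.05, 2 nuclear members were lower, Cox6a2 and Ndufa4l2. Without overlap 8 nuclear members were lower in control HFD (Atp5l, Cox6a2, Cox7c, Ndufa4l2, Ndufa6, Ndufb4, Ndufb8 and Uqcrb), as were mt-Co2 and mt-Nd6. Atp5a1 was higher, where 6.32% of all genes were higher and 7.76% lower. For mt-Co2 the gap was slight, with 3748 and 3715 in control HFD against a control chow minimum of 3754. Its sum with Gm28661 overlapped between these groups, so mt-Co2 stays uncertain. Ndufb4 stays uncertain as well, because of the bases it shares with Ndufb4c.

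The nuclear median was 0.05 without control chow replicate 2, with the mitochondrial median then at -0.17. It was -0.34 without control chow replicate 1, -0.44 without control chow replicate 3, -0.10 without control HFD replicate 1 and -0.37 without control HFD replicate 2. The mitochondrial median was 0.05 without control HFD replicate 2, -0.58 without control HFD replicate 1 and -0.05 under quantile normalisation. When every column was rescaled to a total of 1000000, the median over all genes was 0.12 and the nuclear median -0.11. The nuclear median was -0.10 under quantile normalisation, with 0.01 over all genes, and -0.11 with the trend on transcript length removed in each library, with 0.01 over all genes. Ndufa1, a membrane-arm subunit of complex I, was at -0.92 ± 0.44 (SE, adjusted p = 0.998).

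The genotype by diet interaction is the genotype difference on HFD minus that on chow. No gene of the 15801 (0%) passed by limma, where 247 genes (1.56%) were higher and 296 (1.87%) lower at an unadjusted p under 0.05. The median was 0.45 for nuclear members with 75 of 83 above 0, 0.49 for mitochondrial members with 13 of 13 above 0, and -0.03 over all genes. At an unadjusted p under 0.05, 5 nuclear members were higher and 0 lower, namely Cox6a2, Uqcrq (1.38 ± 0.63), Ndufb4 (1.02 ± 0.44), Atp5l (0.93 ± 0.42) and Ndufv2 (0.83 ± 0.31). Ndufb4 is uncertain here too, because of the bases it shares with Ndufb4c. Without the 2 extreme libraries the nuclear median was 0.05 and the mitochondrial median 0.31. Without 1 library the nuclear median ran from 0.15, without control chow replicate 2, to 0.60, without control chow replicate 1. The mitochondrial median was 0.05 under quantile normalisation, and 0.16 without control HFD replicate 2. With array weights, which give less weight to libraries that stand apart, the nuclear median was 0.19 for the interaction, -0.02 for mutant against control on chow, 0.06 for HFD against chow in mutants and -0.11 for HFD against chow in controls. Rescaling every column to a total of 1000000 moved the median over all genes to -0.18 and the nuclear median to 0.28. With the trend on transcript length removed in each library, the nuclear median was 0.37 for the interaction. In that fit it was -0.19 for mutant against control on chow, 0.21 for HFD against chow in mutants and 0.14 for mutant against control on HFD.

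Complex II had the smallest median interaction, 0.14, against 0.46 for complex I, 0.58 for complex III, 0.56 for complex IV and 0.42 for complex V. Its 4 genes lay on both sides of 0, with Sdha at -0.31 ± 0.29, Sdhc at -0.06 ± 0.26, Sdhd at 0.33 ± 0.25 and Sdhb at 0.40 ± 0.34. The 5 comparisons share libraries, so their medians are not independent of each other.

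**Figure D4:**
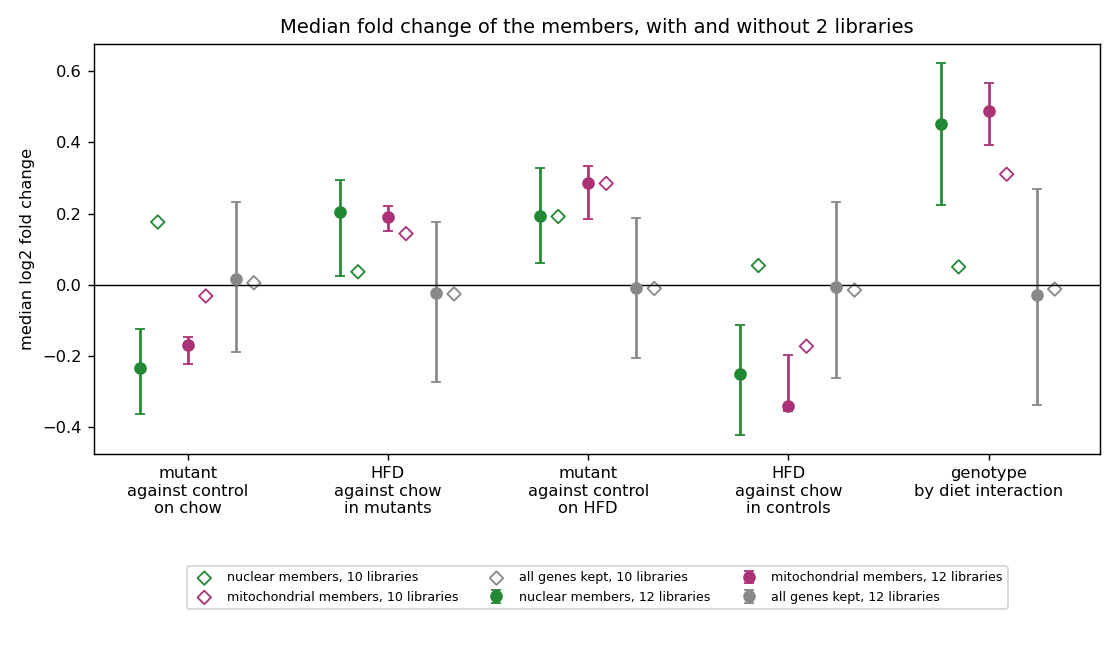
Filled circles are the median log2 fold change in each comparison over 12 libraries for nuclear members (green), mitochondrial members (purple) and all genes tested (grey), with bars from the lower to the upper quartile over genes; diamonds are the medians over 10 libraries, without control chow replicate 2 and mutant chow replicate 3, which were picked by the members' own levels. The nuclear median for mutant against control on chow goes from -0.23 to 0.18, and that for the interaction from 0.45 to 0.05.

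The tissue-restricted isoforms were low in the arcuate nucleus. Cox6a2, the heart and skeletal muscle form of a subunit whose ubiquitous form is Cox6a1, had signals of 18.97, 32.3 and 12.9 in control chow, 12.2, 7.81, 9.02 and 7.84 in mutant chow, 3.40 and 0.917 in control HFD, and 11.8, 7.01 and 15.3 in mutant HFD. Both control HFD libraries were below all 10 others. It made up between 0.0776% and 1.98% of the signal of the pair. Its log2 fold change for HFD against chow in controls was -2.85 ± 0.46 (SE, adjusted p = 0.663), which ranked 1 of 15801 genes by p, and did not pass. For the interaction it was 3.09 ± 0.60 (adjusted p = 0.896), and for mutant against control 2.03 ± 0.46 on HFD (adjusted p = 1) and -1.06 ± 0.39 on chow (adjusted p = 0.982).

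The sign of Cox6a2 held in all alternatives run, with values from -3.45 to -2.25 when control HFD was set against control chow, and between 2.49 and 3.69 for the interaction. The skeletal or cardiac muscle markers were low in every library, with a summed signal of 4.41 to 23.8 over 5 genes, of 4.41 to 13.9 in control chow and of 5.96 to 9.60 in control HFD.

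Cox7a1, the muscle form whose ubiquitous partner is Cox7a2, had signals of 33.4, 97.4 and 8.18 in control chow, 20.7, 16.1, 48.5 and 6.69 in mutant chow, 13.04 and a listed 0 in control HFD, and 19.5, 24.8 and a listed 0 in mutant HFD. The values of 0 and the high value of control chow replicate 2 fell in different groups, and its log2 fold change for HFD against chow in controls was -3.07 ± 1.45 (adjusted p = 0.998). Cox6b2, known as the testis form of Cox6b1, had signals of 14.8, 30.1 and 61.5 in control chow, 12.9, 22.3, 69.8 and 12.2 in mutant chow, 28.6 and 52.0 in control HFD, and 13.8, 15.02 and 7.95 in mutant HFD. In mutant HFD it lay below control HFD without overlap, at -1.62 ± 0.69 (adjusted p = 1). In mutant chow replicate 3, where Cox6b1 was lowest, Cox6b2 was highest and made up 19.2% of the pair.

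Cox4i2, the form of subunit 4 known from lung and from low oxygen, had signals of 2.24, 17.3 and 9.78 in control chow, 2.63, 4.30, 5.86 and 7.93 in mutant chow, 9.73 and 10.49 in control HFD, and 3.90, 6.62 and 1.88 in mutant HFD. It was lower in mutant HFD than in control HFD without overlap, at -1.22 ± 0.65 (adjusted p = 1), and never exceeded 0.935% of the pair with Cox4i1. Ndufa4l2, a form of Ndufa4 known as a target of hypoxia-inducible factors, had signals of 5.01, 7.97 and 21.9 in control chow, 1.39, 7.74, a listed 0 and 0.989 in mutant chow, 1.45 and 3.12 in control HFD, and 4.01, 2.80 and 1.29 in mutant HFD. Its log2 fold change was -2.08 ± 0.66 for mutant against control on chow (adjusted p = 0.982) and -1.76 ± 0.79 for HFD against chow in controls (adjusted p = 0.998). These genes are low enough that the added 1 before the log shrinks their fold changes.

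**Figure D5:**
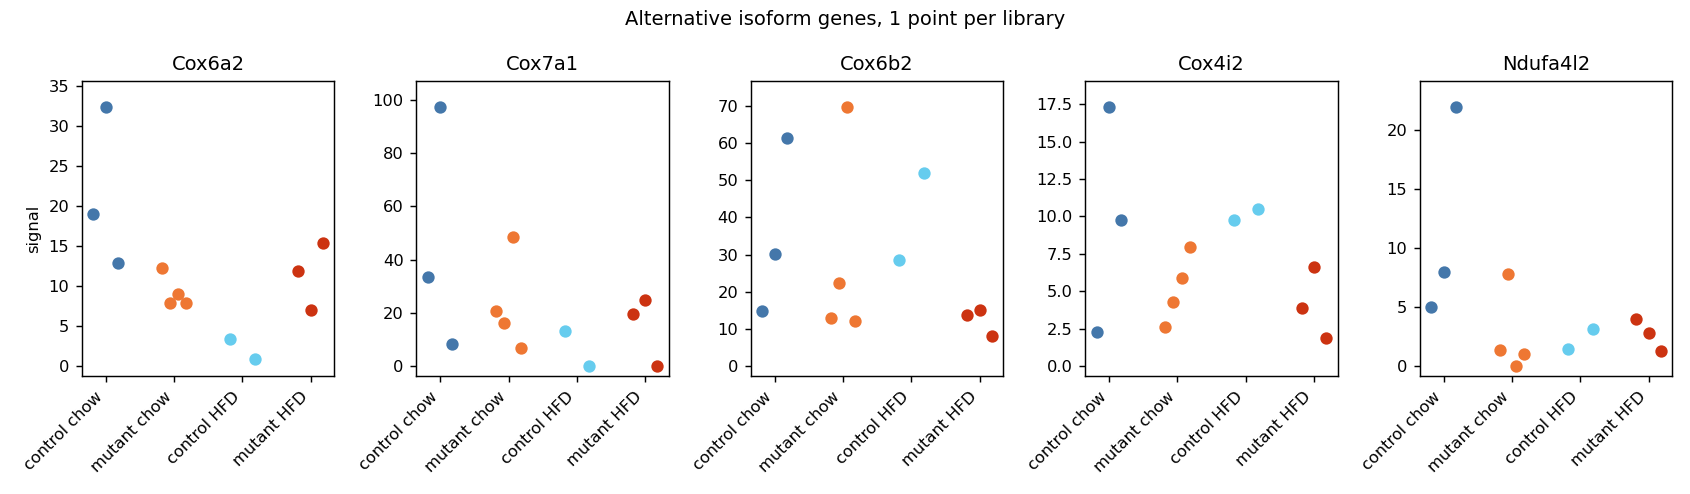
Signal of Cox6a2, Cox7a1, Cox6b2, Cox4i2 and Ndufa4l2 by group, 1 point per library and a linear axis for each gene. Both control HFD points of Cox6a2, 3.40 and 0.917, lie below every point of the other groups.

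Other genes of the pathway were taken from 10 lists, and 0 members of any list passed the adjusted threshold in any of the 5 comparisons. The 78 mitochondrial ribosomal protein genes, which build the ribosome that translates the 13 mitochondrial messengers, were high and low in the same 2 libraries as the nuclear members. Their median was 0.54 above the mean in control chow replicate 2 and 0.28 below it in mutant chow replicate 3, and their median log2 fold changes were -0.20 for mutant against control on chow, -0.26 for HFD against chow in controls and 0.41 for the interaction. Without both libraries these 3 medians were 0.07, -0.05 and 0.09. At an unadjusted p under 0.05, 9 of the 78 were higher and 0 lower for the interaction, where 1.56% of all genes were higher and 1.87% lower. Without control chow replicate 2 the counts were 4 and 0, and without both libraries 5 and 1. For HFD against chow in controls 0 were higher and 8 lower, where 1.44% of all genes were higher and 2.1% lower. Without control chow replicate 2 the counts were 1 and 3, and without both libraries 3 and 3. For mutant against control on HFD the median was 0.15, with 7 higher and 0 lower, where 1.09% of all genes were higher and 1.11% lower. Without both libraries the counts were 10 and 0, where 324 of 15667 genes were higher and 284 lower. Chow libraries enter this comparison only through the shared spread, and it rests on 2 control HFD libraries. For HFD against chow in mutants the median was 0.10, with 1 higher and 1 lower. No set test was run, and genes that move together in a library are not independent of each other.

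Assembly factors had medians for mutant against control on chow of -0.07 for the 15 of complex I, -0.23 for the 19 of complex IV and -0.21 for the 13 of complexes II, III and V. The genes for upkeep and transcription of mitochondrial DNA (15 of 15 tested), such as Tfam and Polrmt, were at -0.21, and those for mitochondrial RNA processing and stability (13 of 14 tested) at 0.14. The biogenesis regulators (9 of 10 tested), among them Ppargc1a, Nrf1 and Gabpa, were at 0.29, with a deviation of -0.47 in control chow replicate 2, opposite to the nuclear members there. The electron carrier and supercomplex genes (5 of 6 tested) were at -0.27. Without both extreme libraries the medians were 0.12, 0.04 and 0.24 for the 3 sets of assembly factors, -0.03 for DNA upkeep, 0.16 for RNA processing, 0.08 for the regulators and 0.01 for the carrier genes. In these lists 0 to 2 genes per direction and comparison had an unadjusted p under 0.05.

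The 13 genes of the citric acid cycle had a median of -0.07 and the 17 of glycolysis -0.03 for mutant against control on chow, and 0.06 and -0.00 for the interaction. Without both libraries they were 0.04 and 0.08 for the first and 0.00 and -0.14 for the second. In control chow replicate 2 they deviated by 0.17 and 0.09, against 0.72 for the nuclear members. The 24 listed ribosomal and transfer RNA genes of the mitochondrial genome were not analysed here.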

How the data were processed

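Arcuate nucleus RNA was sequenced by the authors as NEBNext Ultra II libraries. They assigned reads to mm10 transcripts with kallisto, summed per gene, and tested genes with sleuth. Versions, annotation, strand use and RNA selection are not given in the sources used here. The deposited table holds a signal for 16640 genes in 12 libraries, normalised by the authors for length and depth, with a scaling between libraries that is not given. No pair of libraries held identical values, 0 value columns were left unmapped, and depth is unknown, so no counting error is given.

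Symbols came from GENCODE M21 (GRCm38) for 16633 genes, and 7 had none. Genes with a signal of at least 1 in at least 2 libraries were kept (15801). limma 3.58.1 in R 4.3.3 with a mean-variance trend was fitted to log2(signal + 1) with 1 mean per group over all 12 libraries. Tests were two-sided, with Benjamini-Hochberg adjustment over the whole table and a threshold of 0.05. Fold changes on this scale understate those of low genes. The fit was tested on simulated data.

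Members, lists and tests were chosen with earlier results of these data known. Genes named were the 13 mitochondrial genes, core subunits, isoform pairs, and per comparison the 3 largest differences in each direction among members with a mean of at least 5. Genes named for non-overlapping ranges, unadjusted p, spread or shared sequence were chosen after their values were seen. Copies were sought with BLAST+ 2.17.0 (95% identity over at least 100 bases). Alternatives were 4 scalings, 2 filters, a pseudocount of 0.1, no trend, array weights, fewer groups and each library left out. The fit without 2 libraries, also for the lists of other genes, removal of the length trend and addition of copies were chosen after seeing the data. The values of 1 member are not reported here, and it stays in the counts and medians.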

Additional observations from a re-analysis of the deposited data

Results flagged for a closer look

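In mutant chow, the only group of 4 libraries, 54 measures were checked for 1 library far from the other 3, and 3 measures passed, each with mutant chow replicate 3 as the lowest. Its gap to the nearest library, as a share of the group's range, was 0.885 for Cyc1 (97.7 against 170 to 179), 0.836 for the summed mitochondrial signal (77212 against 88799 to 91072) and 0.859 for the mitochondrial percentage of all signal (8.27 against 9.07 to 9.20). Chance passes about 1 measure in 20, so about as many as these 3 are expected among 54, and the last pair is the same sum in different units. This library also had the most genes listed at 0, 1768. The cause was not tested.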

How the results depend on the processing

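The count of members passing the adjusted threshold was 0 in all 124 alternatives run over the 5 comparisons. With control chow replicate 2 and mutant chow replicate 3 both left out, the nuclear median moved to 0.18 for mutant against control on chow and to 0.050 for the interaction. The other 122 of 124 nuclear medians stayed within the spread between replicates. That spread was wide, with a within-group SD of library medians of 0.31 that includes these 2 libraries, so changes of sign could stay inside it. Without control chow replicate 2 alone, the nuclear median went from -0.23 to 0.04 for mutant against control on chow. For HFD against chow in controls it went from -0.25 to 0.05. Quantile normalisation moved the mitochondrial median to 0.065 for mutant against control on HFD. For HFD against chow in controls it moved to -0.047, and for the interaction to 0.052. The method itself largely removes a shift shared by such abundant genes, so these moves towards 0 say little about stability. Over the fits without 1 library, these 3 mitochondrial medians ran from 0.015 to 0.54, from -0.58 to 0.047 and from 0.16 to 0.76, with the ends set by control HFD replicates 1 and 2. The ratio of mitochondrial to nuclear signal with near-identical copies added was 4.11 in mutant chow and 4.23 in mutant HFD, against 3.34 and 3.43 without them. The copies add signal in every control library too. These 2 values therefore cannot be set against the control means given above, which leave the copies out.

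Of 914 alternatives for single genes, 897 kept sign. The log2 fold changes that changed sign when 1 library was left out had these ranges. For mutant against control on chow, Atp5g2 ran from -0.038 to 0.93, Cox7a2 from -0.14 to 0.41 and Ndufc1 from -0.030 to 0.38 (below 0 without control chow replicate 3), and Atp5k from -1.55 to 0.25 (above 0 without mutant chow replicate 3). For HFD against chow in mutants, Atp5k ran from -0.16 to 1.56 (below 0 without mutant chow replicate 3), and Atp5g2 from -0.95 to 0.24 and Cox7a1 from -2.10 to 0.25 (above 0 without mutant HFD replicate 3). For mutant against control on HFD, Atp5g2 ran from -1.05 to 0.14 (above 0 without mutant HFD replicate 3) and Cox7a1 from -0.80 to 3.01 (below 0 without control HFD replicate 2). For HFD against chow in controls, Cox4i2 ran from -0.34 to 0.91 (below 0 without control chow replicate 1) and Cox6b2 from -0.15 to 0.84 (below 0 without control chow replicate 1 or control HFD replicate 2). For the interaction, Cox4i2 ran from -1.21 to 0.039 (above 0 without control chow replicate 1) and Cox7a1 from -0.098 to 3.71 (below 0 without control HFD replicate 2). Atp5k for mutant against control on chow was also at 0.17 with array weights and 0.85 without both extreme libraries, which gave -0.16 for HFD against chow in mutants. The fit of the compared groups alone gives no interaction. The cause was not tested, beyond the libraries named. No paired analysis was possible because the replicate numbers only follow the order of deposition.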
